A study of Mus musculus with 4 samples.

Results

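Imprinted genes are expressed from only the maternal or only the paternal copy, and 10 of them that are known from work on blood stem cells were followed here: Meg3, Rian, Dlk1, H19, Igf2, Peg3, Ndn, Grb10, Plagl1 and Mest. They were taken from a list of names, which was drawn up with earlier results of these data known. A probe set, the group of array probes that measures a transcript, was used where the array annotation gave it exactly 1 gene symbol. By that rule 9 of the 10 genes were measured, with 10 probe sets, among 22180 genes with 1 symbol. H19 had no such probe set, because the probe set that lists it also lists the miRNA gene Mir675.

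The samples were sorted marrow RNA hybridised to 4 arrays (Affymetrix Mouse Gene 2.0 ST), with 1 array for each genotype: the double knockout of Fancd2 and Foxo3a (DKO), the Fancd2 knockout (Fancd2KO), the Foxo3a knockout (Foxo3aKO) and wild type (WT). All mice were 2 months old. The gate, as described, took mononuclear cells that carried c-Kit and Sca-1 and lacked lineage antigens and CD34, a phenotype of haematopoietic stem cells. The sample titles also carry the label SLAM, so this description of the gate may not be complete. Neither the knockout alleles and strain nor the number of mice or cells behind each array is given in the sources used here.

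Imprinting is set by DNA methylation placed in the egg or the sperm, and many of the genes it controls act on growth. Meg3 and Rian are long non-coding RNAs made from the maternal chromosome of the Dlk1-Dio3 domain, a cluster in which Dlk1 is made from the paternal one and in which Rian also carries small nucleolar RNAs (snoRNAs). In mouse fetal liver the maternal RNAs of this domain are known to protect long-term stem cells by holding back PI3K and mTOR signalling. In mouse marrow, H19 and its control of Igf2 are known for keeping stem cells quiescent.

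The promoters of Meg3, Peg3, Rian and Dlk1 are shown first, because Meg3, Peg3 and Rian differed most between the arrays and Dlk1 shares a domain with Meg3 and Rian. Each sequence runs 5′ to 3′ from 250 bases before to 50 bases after a RefSeq start site of build GRCm38.p6. They lie at chr12:109540746-109541045 (plus strand) for Meg3, chr7:6730370-6730669 (minus strand) for Peg3, chr12:109603695-109603994 (plus strand) for Rian and chr12:109452573-109452872 (plus strand) for Dlk1. Capitals mark TGACGTCA, the palindrome of the cAMP response element, and GTAAACA or its reverse complement TGTTTAC, the core that FOXO factors bind. Of the Meg3 start sites, the one whose window holds TGACGTCA is shown.
Meg3: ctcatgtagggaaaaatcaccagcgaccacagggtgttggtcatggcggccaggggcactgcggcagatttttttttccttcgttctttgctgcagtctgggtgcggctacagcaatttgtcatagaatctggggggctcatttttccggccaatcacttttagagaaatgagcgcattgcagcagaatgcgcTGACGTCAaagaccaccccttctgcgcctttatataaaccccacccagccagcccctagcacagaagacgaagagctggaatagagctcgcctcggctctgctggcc
Peg3: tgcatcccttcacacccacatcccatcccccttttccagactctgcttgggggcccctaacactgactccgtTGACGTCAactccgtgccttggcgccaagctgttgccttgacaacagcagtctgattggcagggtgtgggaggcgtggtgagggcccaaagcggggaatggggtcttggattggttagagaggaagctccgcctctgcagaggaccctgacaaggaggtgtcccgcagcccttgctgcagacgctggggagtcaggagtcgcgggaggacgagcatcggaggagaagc
Rian: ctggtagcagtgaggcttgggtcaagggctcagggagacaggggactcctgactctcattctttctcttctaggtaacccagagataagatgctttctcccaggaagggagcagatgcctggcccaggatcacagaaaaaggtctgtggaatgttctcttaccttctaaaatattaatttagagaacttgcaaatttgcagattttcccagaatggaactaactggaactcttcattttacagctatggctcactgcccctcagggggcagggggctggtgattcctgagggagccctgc
Dlk1: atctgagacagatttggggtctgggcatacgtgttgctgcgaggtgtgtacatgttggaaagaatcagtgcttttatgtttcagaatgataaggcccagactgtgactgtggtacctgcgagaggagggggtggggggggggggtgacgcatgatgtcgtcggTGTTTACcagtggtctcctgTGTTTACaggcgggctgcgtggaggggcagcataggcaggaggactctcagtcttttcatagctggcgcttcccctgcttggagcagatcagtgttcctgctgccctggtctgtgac

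Of the 9 measured members, all had a promoter in the RefSeq table, with 16 start sites in all. TGACGTCA stood in 2 of the 16, those of Meg3 and Peg3 shown above, and in 1.79% of all 32851 promoters of the same length. Counted from the start site, its first base lay at -57 in Meg3 and at -178 in Peg3. GTAAACA, searched on both strands, stood in 1 of the 16, that of Dlk1, which held it 2 times, and in 3.65% of all promoters. The motifs do not overlap each other, and TGACGTCA was chosen after the sequences had been read. The Rian window held neither motif and 0 CpG dinucleotides. The windows shown held 13 in Meg3, 13 in Peg3 and 9 in Dlk1, and the median over all promoters was 7. Meg3 has a further start site, not shown, whose window (chr12:109545148-109545447) held neither motif and 1 CpG.

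The arrays were alike in overall signal, with medians over 41345 probe sets between 5.27 and 5.34 log2 and Pearson correlations between arrays from 0.965 to 0.969. A gene was counted as above the floor when at least 1 array gave it 5.51 log2, the median over genes and arrays, and 12041 genes met this. Fancd2 (probe set 17461739) had 5.84 log2 in DKO, 6.08 in Fancd2KO, 6.67 in Foxo3aKO and 6.56 in WT, while Foxo3 (probe set 17240529) had 6.51, 6.72, 6.64 and 6.62 on the same arrays. Foxo3 differed from WT by -0.10 log2 in DKO and by 0.02 in Foxo3aKO, the arrays labelled as lacking Foxo3a, and the exons under its probe set were not known. Of 14 measured stem cell markers, 2 were at least 2-fold higher in Fancd2KO than in WT, Slamf1 by 1.11 log2 and Vwf by 1.08. In DKO 1 was higher than in WT, Vwf by 1.02, and 1 was lower, Tek by -1.25. The shares of genes above the floor were 1.68% higher in Fancd2KO, and 1.37% higher and 1.72% lower in DKO. All 14 markers stood at or above the floor on every array, with Kit at 10.41 to 10.67 log2. Transcripts of cells or antigens that the gate as described should remove were also high: the neutrophil gene S100a8 stood at 12.88 to 13.07 log2 and Cd34 at 9.67 to 10.79 log2.

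With 1 array per genotype no difference has a replicate check, and no p-value is given. The number of arrays limits the precision. The error that could be measured was the disagreement of probe sets of the same gene: over 728 genes with 2 probe sets, both gave a Fancd2KO minus WT difference within 0.92 log2 of each other for 95% of genes, with an SD of 0.49. The corresponding 95% limit was 0.94 for Foxo3aKO minus WT, 0.96 for DKO minus WT, 1.01 for DKO minus Fancd2KO and 0.95 for DKO minus Foxo3aKO. This limit holds probe error and not the spread between mice. The comparisons share arrays, so their values are given side by side and are not separate evidence.

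Meg3, Rian and Peg3 were the members that differed most. By their probe sets with 1 symbol, all 3 were highest on the Fancd2KO array and lowest on the DKO array. The Foxo3aKO and WT arrays lay close together between these ends. Probe sets that list these genes beside other symbols did not all give this order. Those listing DQ267100 and Rian, and Meg3 with Mir1906-1 and Mir1906-2, were highest in WT. Those listing Meg3 and Mir770, and Peg3 and Peg3os, were highest in Fancd2KO and lowest in DKO. Meg3 (probe set 17283955) had 4.26 log2 in DKO, 7.06 in Fancd2KO, 5.46 in Foxo3aKO and 5.64 in WT. Rian (probe set 17278715) had 3.97 log2 in DKO, 6.48 in Fancd2KO, 5.13 in Foxo3aKO and 5.03 in WT. Peg3 (probe set 17486110), which encodes a paternally expressed zinc finger protein, had 3.94 log2 in DKO, 6.06 in Fancd2KO, 4.76 in Foxo3aKO and 4.67 in WT. Peg3 lies on chromosome 7 and Meg3 and Rian on chromosome 12, and the order of the 4 arrays was the same in Rian and Peg3. In a bulk sample, fewer cells that express a gene and less of its RNA per cell cannot be told apart.

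**Figure D1:**
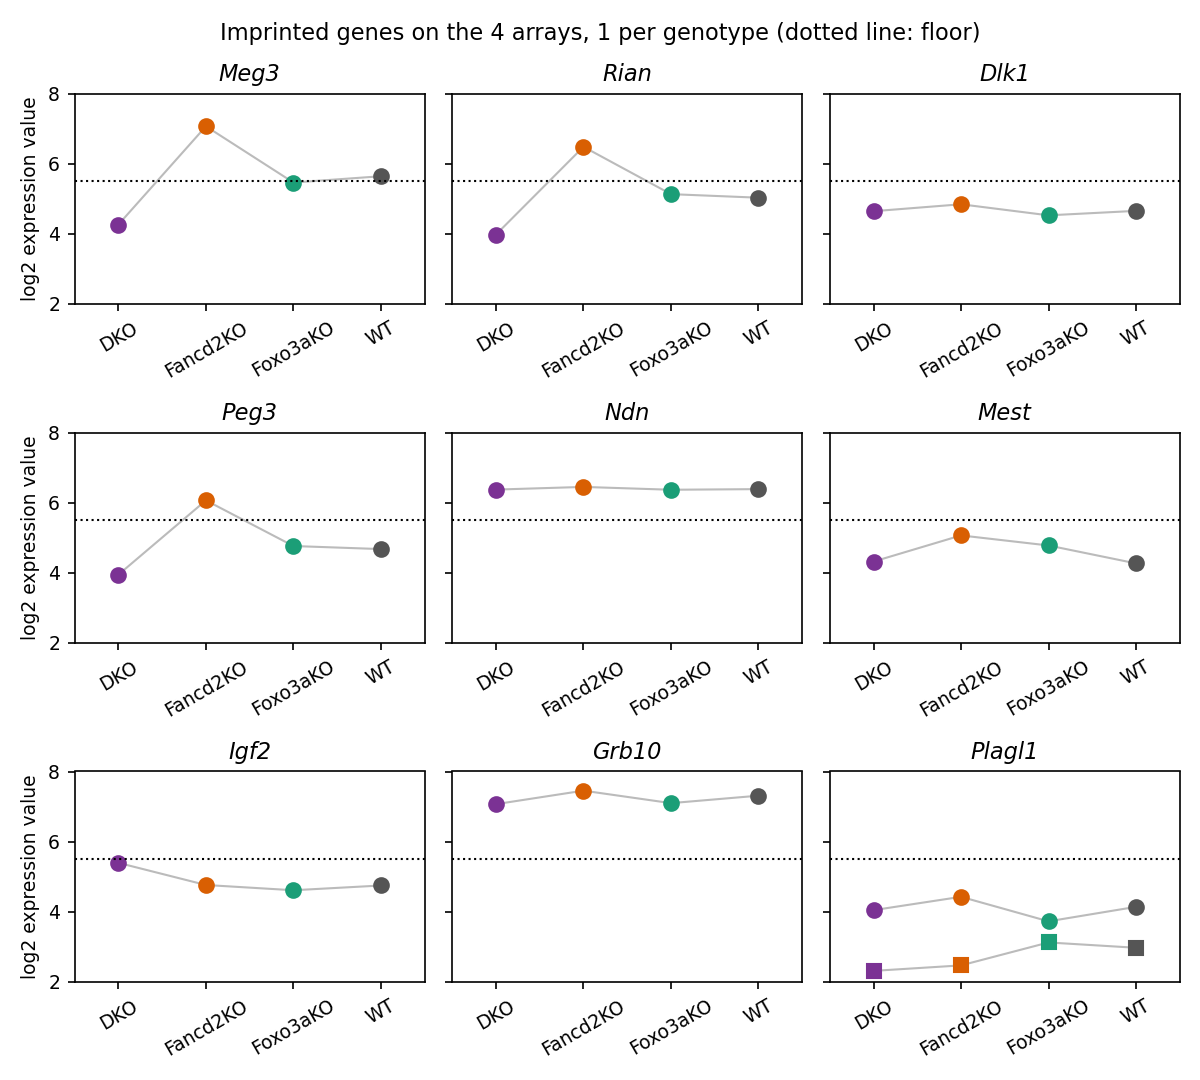
Log2 expression value (y axis) of the 9 measured imprinted genes on the arrays of DKO, Fancd2KO, Foxo3aKO and WT (x axis), 1 point per array and probe set, with the floor of 5.51 log2 as a dotted line. Plagl1 has 2 probe sets (circles and squares). Meg3, Rian and Peg3 peak in Fancd2KO and are lowest in DKO, while Ndn and Grb10 stay above the floor on all 4 arrays and vary by less than 0.40 log2.

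Fancd2 loss with Foxo3a present is the comparison of Fancd2KO with WT. Meg3 was higher in Fancd2KO by 1.43 log2 (2.69-fold), Rian by 1.45 (2.74-fold) and Peg3 by 1.39 (2.62-fold). These 3 of 9 measured members were at least 2-fold higher and 0 were at least 2-fold lower, against 1.15% of all 22180 genes higher and 1.01% lower. Among genes above the floor the shares were 1.68% and 1.35%. All 3 differences exceeded the 0.92 log2 limit of probe set disagreement. By the brightest probe set of each gene, all 9 measured members had a higher value in Fancd2KO than in WT, with a median difference of 0.29 log2 beside 0.00 over all genes, and 6 of them differed by less than 2-fold. Those 6 lay inside the 0.92 log2 limit, so their direction cannot be read from these arrays. Among them Igf2, Dlk1, Plagl1 and Mest were under the floor on every array. The other Plagl1 probe set was lower in Fancd2KO, by -0.50 log2. The sizes for Rian and Peg3 rest on WT values under the floor. With every value under the floor raised to it, Meg3 was still 1.43 higher, but Rian was 0.97 and Peg3 0.56 higher, both under 2-fold.

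Foxo3a loss with Fancd2 present, Foxo3aKO against WT, showed little in the probe sets of these genes with 1 symbol. Meg3 differed by -0.18 log2, Rian by 0.10 and Peg3 by 0.09, each far inside the 0.94 log2 limit of probe set disagreement. Of the probe sets with several symbols, that of Peg3 and Peg3os differed by 1.39 and that of DQ267100 and Rian by -2.26. The probe set of Meg3 and Mir770 differed by 0.20 and that of Meg3, Mir1906-1 and Mir1906-2 by -0.39. Of the 9 measured members, 0 were at least 2-fold higher and 0 at least 2-fold lower, where 1.27% and 0.902% of all genes, and 1.81% and 1.3% of genes above the floor, were. The member median was -0.13 log2, beside -0.01 over all genes.

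When both genes were lost, the difference from WT had the opposite sign to that of Fancd2 loss alone. DKO minus WT was -1.38 log2 for Meg3 and -1.05 for Rian, and both exceeded the 0.96 log2 limit of probe set disagreement. Peg3 differed by -0.73, inside that limit. These 2 of 9 measured members were at least 2-fold lower and 0 at least 2-fold higher, against 1.18% of all genes lower and 0.987% higher, or 1.72% and 1.37% of genes above the floor. All 3 genes lay under the floor in DKO, and Rian and Peg3 also did in WT, so the size of these differences is not exact. With values under the floor raised to it, Meg3 differed by only -0.13 log2 and Rian and Peg3 by 0.00.

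The difference between the DKO and Fancd2KO arrays was the widest. Meg3 was lower in DKO by a log2 difference of -2.80 (6.98-fold), Rian by -2.50 (5.68-fold) and Peg3 by -2.12 (4.34-fold). Of the 9 measured members 3 were at least 2-fold lower and 0 at least 2-fold higher, while 1.03% of all genes were lower and 1.04% higher by that much, and 1.51% and 1.5% of genes above the floor. Raised to the floor, Meg3 differed by -1.56, Rian by -0.97 and Peg3 by -0.56 log2, so the Meg3 call did not rest on the exact dim value in DKO.

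Fancd2 loss could also be read where Foxo3a was already absent, as DKO against Foxo3aKO. There Meg3 was lower in DKO by -1.20 log2, Rian by -1.15 and Peg3 by -0.82. The first 2 exceeded the 0.95 log2 limit of probe set disagreement and Peg3 did not. At least 2-fold lower were 2 of 9 measured members, against 1.54% of all genes and 2.18% of genes above the floor, and 0 were higher, against 0.825% and 1.18%. Both arrays lay under the floor for these 3 genes, and with dim values raised to it the differences were 0.00. The direction on this background therefore rests on signals below the floor.

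**Figure D2:**
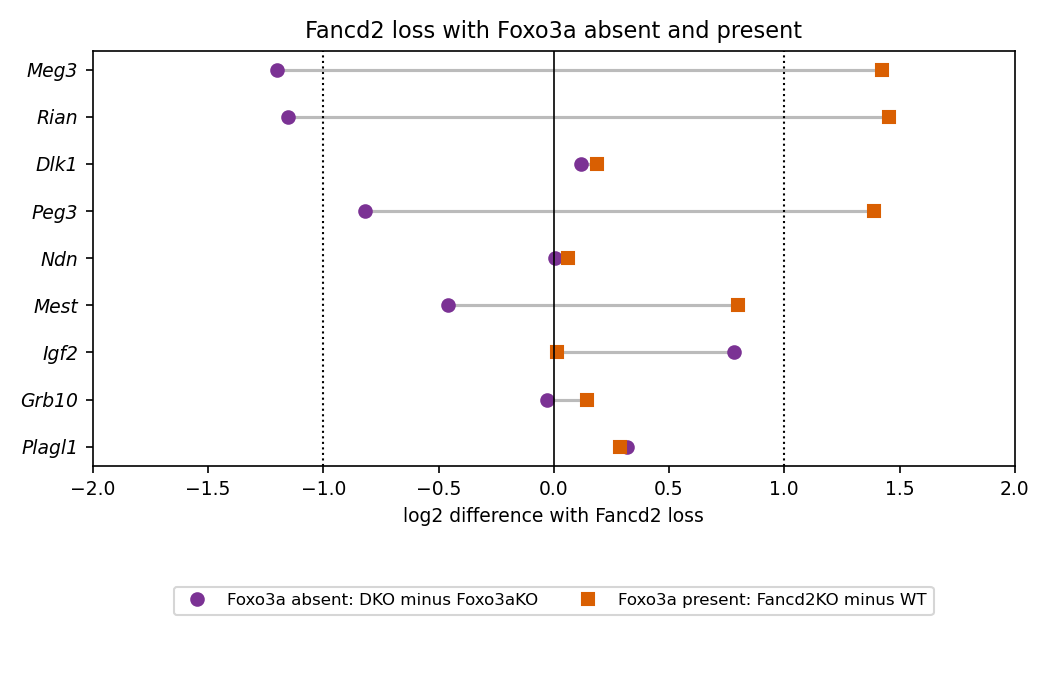
Log2 difference with Fancd2 loss (x axis) for each measured imprinted gene (y axis), with Foxo3a absent as DKO minus Foxo3aKO (circles) and with Foxo3a present as Fancd2KO minus WT (squares); dotted lines mark 2-fold. Meg3, Rian and Peg3 lie at -1.20, -1.15 and -0.82 where Foxo3a is absent and at 1.43, 1.45 and 1.39 where it is present, while Ndn, Grb10 and the dim Dlk1 and Plagl1 differ little between the backgrounds.

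The departure from additivity, DKO minus Fancd2KO minus Foxo3aKO plus WT on the log2 scale, sets these values in 1 number and uses each array once. It was -2.62 for Meg3, -2.61 for Rian and -2.21 for Peg3, and the limit of probe set disagreement for this quantity was 1.37. With Mest at -1.26, inside that limit and under the floor, 4 of 9 measured members lay at or below -1 and 0 at or above 1, against 3.39% and 3.02% of all genes and 4.43% and 3.99% of genes above the floor. The other 5 lay between -0.17 and 0.77. With dim values raised to the floor, the departure was -1.43 for Meg3, -0.97 for Rian and -0.56 for Peg3.

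**Figure D3:**
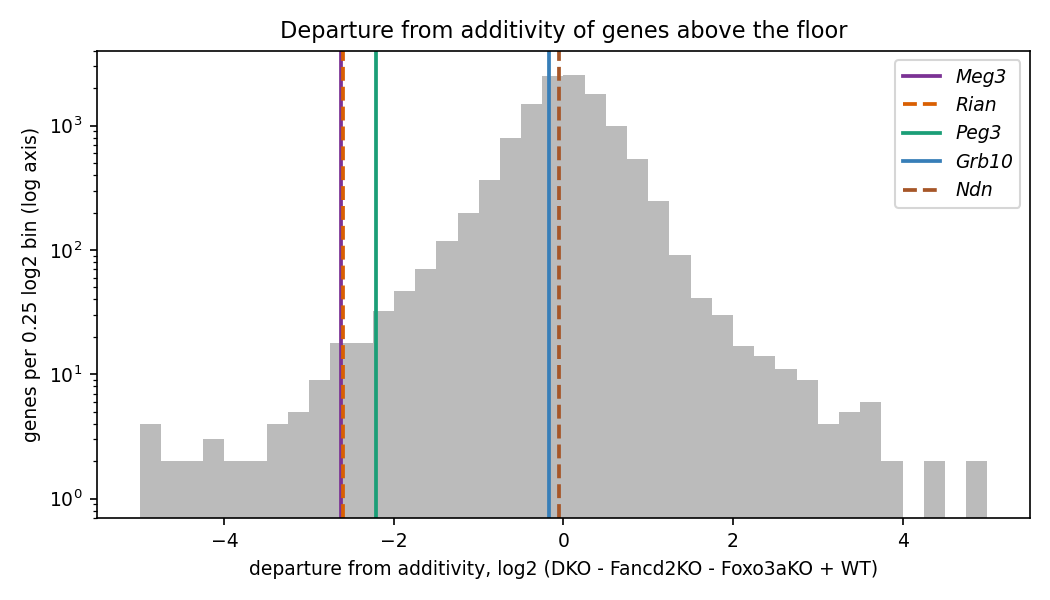
Number of genes above the floor (y axis, log scale) by departure from additivity in log2 (x axis, bins of 0.25; the outermost bins also hold values beyond them), with vertical lines at the 5 imprinted genes above the floor. Meg3, Rian and Peg3 lie in the low tail at -2.62, -2.61 and -2.21, and Grb10 at -0.17 and Ndn at -0.06 lie near the centre.

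The other members above the floor did not show differences of this size. Ndn (probe set 17478789), which encodes necdin, a growth suppressor known for restraining stem cell cycling, had 6.37 log2 in DKO, 6.45 in Fancd2KO, 6.37 in Foxo3aKO and 6.38 in WT. Its range over all 4 arrays was 0.08 log2. Grb10 (probe set 17260668), an adaptor that dampens insulin and IGF receptor signalling, had 7.07 log2 in DKO, 7.45 in Fancd2KO, 7.10 in Foxo3aKO and 7.31 in WT. Grb10 ordered the 4 arrays as Meg3 did, but its widest difference, -0.39 for DKO minus Fancd2KO, was within probe set disagreement. Both genes were thus measured above the floor on every array with no 2-fold difference between any pair.

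Of the remaining members, 4 lay under the floor on all 4 arrays. Dlk1 (probe set 17278647), a membrane protein with EGF-like repeats related to Notch ligands, had 4.64 log2 in DKO, 4.84 in Fancd2KO, 4.52 in Foxo3aKO and 4.65 in WT. Its range was 0.32 log2, all of it under the floor, so whether it stayed level cannot be read from these arrays. Igf2 (probe set 17498142), the paternally expressed growth factor, had 5.39 log2 in DKO, 4.76 in Fancd2KO, 4.61 in Foxo3aKO and 4.75 in WT. Igf2 was highest in DKO, by 0.65 log2 over WT, which was within probe set disagreement. Mest (probe set 17456934), a paternally expressed hydrolase-like gene, had 4.32 log2 in DKO, 5.06 in Fancd2KO, 4.78 in Foxo3aKO and 4.27 in WT. Its highest array was Fancd2KO, 0.80 above WT and inside the limit of disagreement. Plagl1, a zinc finger factor known to regulate other imprinted genes, had 2 probe sets: 17231694 had 4.04, 4.42, 3.72 and 4.14 log2 and 17239360 had 2.31, 2.47, 3.12 and 2.97 log2 in DKO, Fancd2KO, Foxo3aKO and WT. They ordered the arrays differently, with the first highest in Fancd2KO and the second in Foxo3aKO.

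The Dlk1-Dio3 domain was then read gene by gene, from Dlk1 to Dio3 in the order of the RefSeq table, a step added after the values were seen. It held 59 probe sets with 1 symbol. Of 4 long non-coding RNA probe sets, Meg3 and Rian differed as above, while Dio3os and 3110009F21Rik differed from WT by no more than 0.34 log2 on any knockout array. Its 2 protein-coding genes, Dlk1 and Dio3, a deiodinase that inactivates thyroid hormone, stood under the floor throughout, and their largest difference from WT was 0.60 log2, for Dio3 in Fancd2KO. Of 43 miRNA genes with 47 probe sets, 10 were above the floor. Among those 10 genes only Mir453 differed by at least 2-fold from WT on any knockout array. Mir453 (probe set 17278876) had 4.07 log2 in DKO, 5.57 in Fancd2KO, 3.85 in Foxo3aKO and 4.14 in WT, which reached the floor in Fancd2KO only and was 1.43 higher there. The array probes the precursor or its host transcript and not the mature miRNA, whose RefSeq sequence (GRCm38.p6, chr12:109735669-109735692, plus strand) is given with the seed, bases 2 to 8, in capitals.
mmu-miR-453: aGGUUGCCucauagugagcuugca

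Among the 43 domain miRNAs 1 more, Mir544, was at least 2-fold higher in Fancd2KO. It had 2.85 log2 in DKO, 4.27 in Fancd2KO, 3.48 in Foxo3aKO and 2.63 in WT, all under the floor. Mir337 was higher in DKO than in WT and Fancd2KO, where Meg3 and Rian were lower. It had 4.38, 3.14, 4.18 and 3.29 log2 on the same arrays, also under the floor. At least 2-fold higher than in WT were 2 of the 47 miRNA probe sets in Fancd2KO and 1 in DKO. Of all genes 1.15% and 0.987% were. Mir544 and Mir337 were named after their values were seen. The 47 miRNA probe sets had a median difference of 0.08 log2 in Fancd2KO and 0.10 in DKO against WT, beside 0.00 and 0.02 over all genes, and only 10 of them were above the floor. SnoRNA genes that lie within Rian varied more. AF357425 (probe set 17278761) had 3.34 log2 in DKO, 6.20 in Fancd2KO, 3.39 in Foxo3aKO and 3.34 in WT, so it was higher in Fancd2KO by 2.86 and alike on the other 3 arrays. AF357355 (probe set 17278775) had 2.04 log2 in DKO, 5.50 in Fancd2KO, 3.38 in Foxo3aKO and 5.25 in WT, so it was lower by -3.21 in DKO and by -1.87 in Foxo3aKO. All 4 of its values were under the floor. Of the 6 snoRNA probe sets, 3 were at least 2-fold lower in DKO than in Fancd2KO and 0 were higher, where 1.03% and 1.04% of all genes were. Above the floor were 2 of the 6, AF357425 and DQ267102, and DQ267102 was higher in DKO than in Fancd2KO by 0.48 log2. AF357425 reached the floor in Fancd2KO only. Also among the 3 was DQ267101 (probe set 17278773), which was highest in Foxo3aKO. It had 3.24 log2 in DKO, 4.97 in Fancd2KO, 5.38 in Foxo3aKO and 3.89 in WT, all under the floor. The other DQ267101 probe set was higher in DKO than in Fancd2KO by 0.28. The snoRNA genes of this domain are near-identical copies that can share probes, and these were named after their values were seen.

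**Figure D4:**
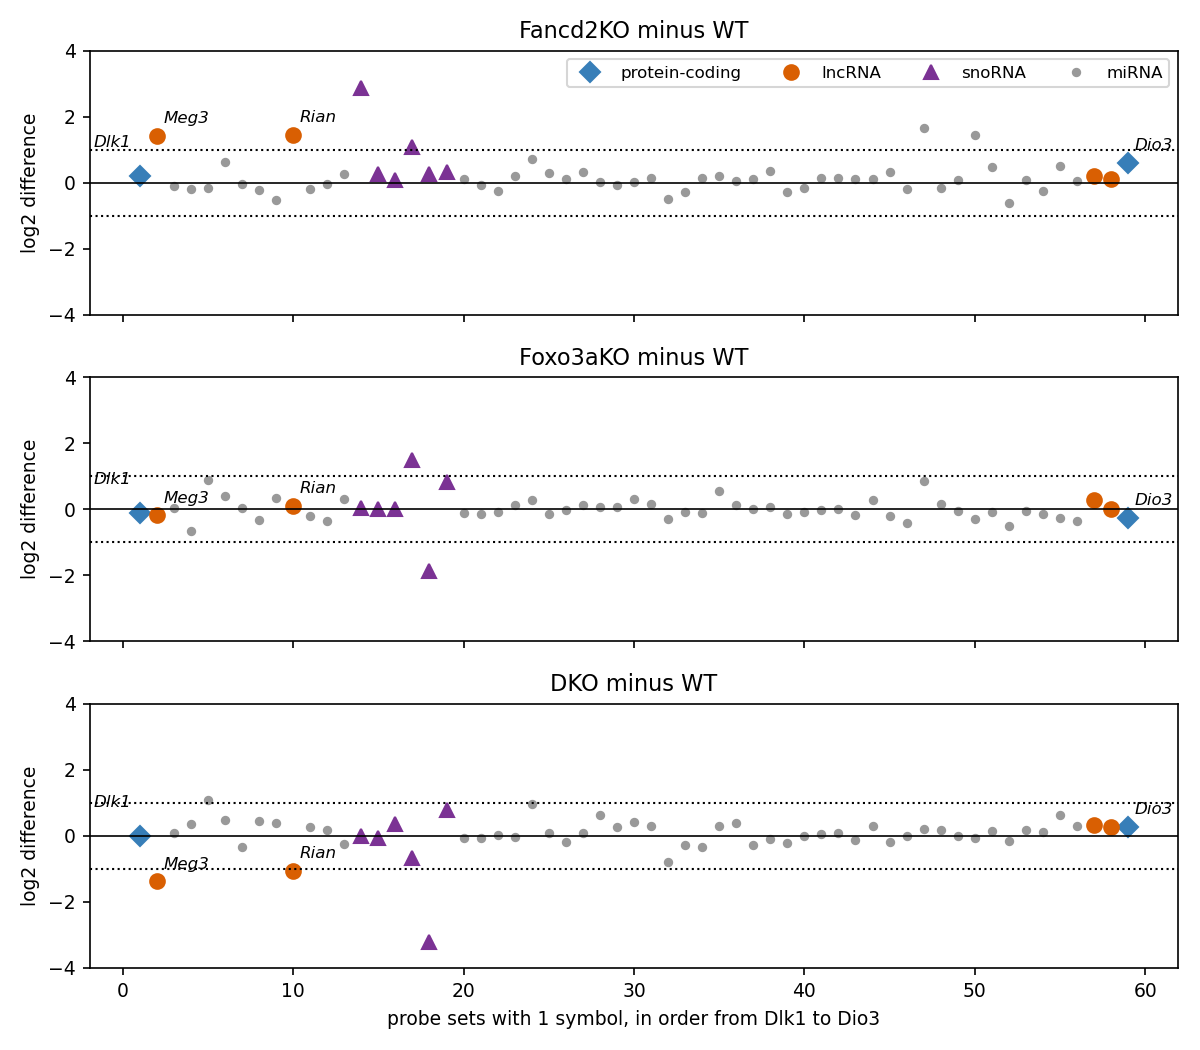
Log2 difference from WT (y axis) for the 59 probe sets with 1 symbol between Dlk1 and Dio3, in their order along the domain (x axis, no distance scale), for Fancd2KO, Foxo3aKO and DKO; symbols give the kind of gene and dotted lines mark 2-fold. Meg3 and Rian lie above 1 in Fancd2KO and below -1 in DKO, most miRNA probe sets, of which 10 of 47 are above the floor, lie near 0, and snoRNA probe sets spread from -3.21 to 2.86.

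The miRNA genes hosted by other members were not at 2-fold. Mir483, inside Igf2, stood above the floor at 7.44 log2 in DKO, 7.48 in Fancd2KO, 7.56 in Foxo3aKO and 7.25 in WT, and Mir335, inside Mest, had 5.08 to 5.27 log2 over the 4 arrays.

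A list of 95 other genes imprinted in mouse had 78 measured and 48 above the floor. Of those 48, 0 were at least 2-fold from WT in Fancd2KO or DKO, and 1 was in Foxo3aKO: Tnfrsf23, a decoy receptor for the death ligand TRAIL, with 4.80 log2 in DKO, 5.47 in Fancd2KO, 6.05 in Foxo3aKO and 5.01 in WT. Above the floor, 3.03% of all genes were at least 2-fold from WT in either direction in Fancd2KO, 3.09% in DKO and 3.11% in Foxo3aKO. The list medians were -0.01 for Fancd2KO, -0.09 for Foxo3aKO and -0.15 for DKO against WT, beside -0.01, -0.04 and -0.03 over all genes above the floor. Cdkn1c, which encodes the cell cycle inhibitor p57, had 6.27 log2 in DKO, 6.01 in Fancd2KO, 6.02 in Foxo3aKO and 5.72 in WT, and Gnas, which encodes a G protein subunit, had 5.61, 5.62, 5.70 and 5.55. Both were named after their values were seen. At or below -1 in departure from additivity were Tnfrsf23 (-1.70) and Blcap (-1.13), 2 of the 48, beside the 4.43% of all genes above the floor. A count of 0 or 1 in 48 is near these shares over all genes.

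The insulin-like growth factor genes outside the members had 18 of 20 measured and 8 above the floor, and 0 of those were at least 2-fold from WT on any knockout array. With shares of 3.03% to 3.11% over all genes above the floor, 0 of 8 is near the background. Igf1r, the receptor of IGF ligands, had 7.17 log2 in DKO, 7.91 in Fancd2KO, 7.92 in Foxo3aKO and 8.08 in WT, a difference of -0.91 in DKO. Irs2, the docking protein under these receptors, had 6.07 log2 in DKO, 7.31 in Fancd2KO, 6.40 in Foxo3aKO and 6.55 in WT. Irs2 was lower in DKO than in Fancd2KO by -1.23, the 1 member of this list past 2-fold in that comparison. Igf1, a ligand, had 5.97, 5.90, 6.18 and 6.55 log2 and Igfbp7, a binding protein, 6.13, 5.87, 6.02 and 5.51 log2 in DKO, Fancd2KO, Foxo3aKO and WT.

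Factors that set, keep or erase imprints had 26 of 26 measured and 23 above the floor, and 0 of the 23 were at least 2-fold apart in any of the 6 quantities compared. For the differences from WT this is near the shares of 3.03% to 3.11% over all genes above the floor. The maintenance methyltransferase Dnmt1 stood at 9.76 to 10.08 log2 and Trim28, the corepressor recruited to imprinted regions, at 9.11 to 9.37 log2, both named after their values were seen. Among the 23 above the floor, the widest differences from WT were those of Uhrf1, which brings Dnmt1 to replicated DNA, and Dnmt3b, a de novo methyltransferase, at -0.80 and -0.68 log2 in Foxo3aKO. Zfp445, a zinc finger protein that binds imprinted regions, differed by -0.51 and the Polycomb subunit Suz12 by -0.48 in DKO.

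Neuronal markers moved with Meg3, Rian and Peg3 on some arrays and not on others. All 12 measured were higher in Fancd2KO than in WT, with a median of 0.89 log2 and 5 at least 2-fold higher, where 1.15% of all genes were, and all 12 were lower in DKO than in Fancd2KO, with a median of -0.78. Their summed signal was 8.73 log2 in DKO, 10.21 in Fancd2KO, 9.53 in Foxo3aKO and 8.54 in WT, and 3, 8, 6 and 2 of the 12 reached the floor on those arrays. Snap25, a synaptic fusion gene, had 3.96 log2 in DKO, 7.43 in Fancd2KO, 6.11 in Foxo3aKO and 3.97 in WT. It was thus higher in Foxo3aKO than in WT and alike in DKO and WT, where Meg3 and Rian were alike in Foxo3aKO and WT and lower in DKO. Not every marker was like Snap25. Camk2a, above the floor on every array, ordered the 4 arrays as Rian and Peg3 did. Camk2a differed from WT by 0.53 log2 in Fancd2KO, 0.02 in Foxo3aKO and -0.14 in DKO, all inside the limits of probe set disagreement. Of the 12 markers, 11 were higher in Foxo3aKO than in WT, 2 of them at least 2-fold. In DKO 8 were higher than in WT and 4 lower, 0 of them by 2-fold. Syt1, Tubb3, Map2 and Gad1 were under the floor on all 4 arrays. The part of these transcripts in the values of the imprinted genes was not tested.

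Other marker lists were set beside the same genes. The summed signal of 12 stromal markers was 8.47 log2 in DKO, 8.99 in Fancd2KO, 8.40 in Foxo3aKO and 8.65 in WT, with 3, 5, 2 and 2 markers at or above the floor and the leptin receptor Lepr, which marks marrow stroma, under it throughout. The matrix gene Sparc had 5.28 log2 in DKO, 6.49 in Fancd2KO, 5.22 in Foxo3aKO and 5.17 in WT. The summed signal of 8 endothelial markers varied only from 9.52 to 9.86 log2. For monocyte and macrophage markers it was 12.96 log2 in DKO, 12.24 in Fancd2KO, 13.10 in Foxo3aKO and 12.61 in WT, lowest where Meg3, Rian and Peg3 were highest. Their mean log2 value was 8.86, 7.31, 8.38 and 7.71 on those arrays. Of these 10 markers, 7 were at least 2-fold higher in DKO than in WT and 1 was lower. Of genes above the floor, 1.37% were higher and 1.72% lower. The summed signal of multipotent progenitor markers was 10.93, 10.87, 10.53 and 11.63 log2 in DKO, Fancd2KO, Foxo3aKO and WT. At least 2-fold lower than in WT were 4 of these 6 in DKO, 2 in Fancd2KO and 3 in Foxo3aKO. The shares of genes above the floor were 1.72%, 1.35% and 1.3%. For neutrophil markers the summed signal was 14.71, 14.71, 15.26 and 14.97 log2 in DKO, Fancd2KO, Foxo3aKO and WT. The parts of these cells in the result were not tested.

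The genes of nearest profile were found by the Euclidean distance between log2 values centred on each gene's mean over the 4 arrays, among 10812 protein-coding and long non-coding genes above the floor that have an official name and are no member. Meg3 and Rian lay 0.29 apart, closer to each other than either was to any of these genes. Rian and Peg3 lay 0.31 apart, with 0 of the 10812 closer to Rian and 2 closer to Peg3. The same 3 genes were nearest to all 3 members, which is not separate evidence, because the members themselves lay 0.29 to 0.55 apart. Rian and Peg3 reached the floor on 1 array only, Fancd2KO, so their distances rest mostly on dim values. Bex2, a small X-linked gene expressed in brain, lay 0.14 from Peg3, 0.42 from Rian and 0.62 from Meg3, with 5.74 log2 in DKO, 7.73 in Fancd2KO, 6.39 in Foxo3aKO and 6.44 in WT. S1pr1, the receptor for sphingosine-1-phosphate that guides cells out of tissue, lay 0.24 from Peg3, 0.52 from Rian and 0.78 from Meg3. Igll1, a part of the surrogate light chain of early B cells, lay 0.36 from Peg3, 0.47 from Rian and 0.59 from Meg3. A likeness over 4 arrays is a description and not a measure of shared control.

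**Figure D5:**
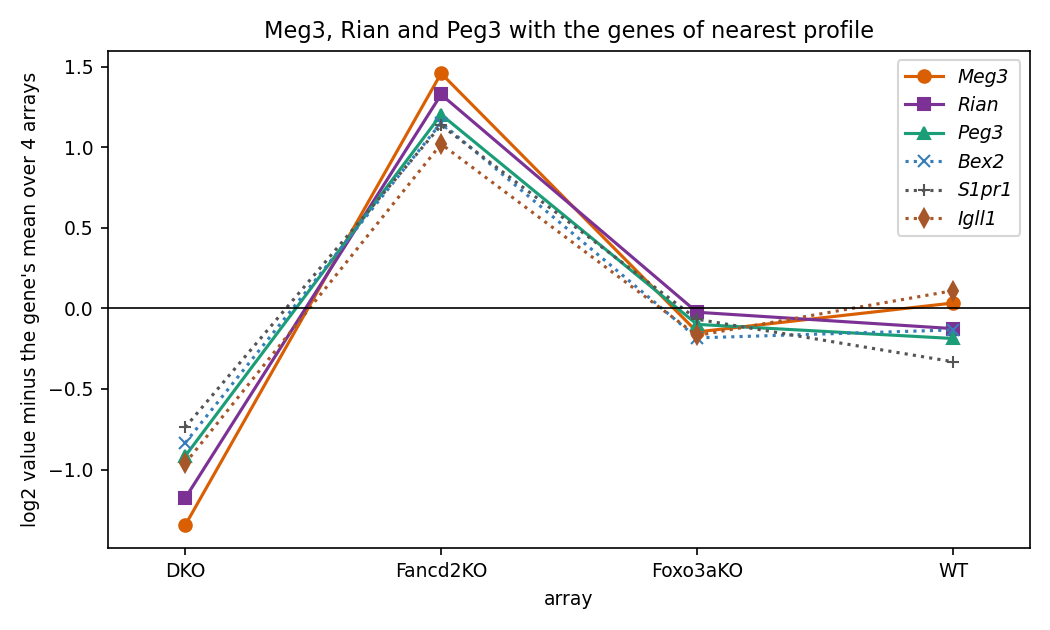
Log2 value minus each gene's mean over the 4 arrays (y axis) on the arrays of DKO, Fancd2KO, Foxo3aKO and WT (x axis) for Meg3, Rian and Peg3 (solid lines) and the genes of nearest profile, Bex2, S1pr1 and Igll1 (dotted lines); lines join the points of a gene and do not stand for an order. All 6 are highest in Fancd2KO and lowest in DKO.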

How the data were processed

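The submitters' processing notes name Affymetrix Expression Console as the authors' software, and the authors deposited log2 expression values. Its version and the methods of summarisation and normalisation are not given in the sources used here, and log2 was read from the range of the deposited values. Between-array normalisation was left as deposited. Of 41345 probe sets, 23521 had 1 gene symbol in the platform annotation, 1814 had several and 16010 had none; 23328 of the first were found in the RefSeq table of GRCm38.p6 by Entrez identifier, with 0 differing symbols. The probe set with the highest mean stood for its gene in counts. Differences were subtracted on the log2 scale, and at least 2-fold was counted. No test was run, since each genotype had 1 array.

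The members and lists were chosen with earlier results of these data known. The rule for named genes took every member; list genes above the floor at least 2-fold from WT, or else the 4 with the largest difference; the brightest 3 markers of a list where markers are cited; Fancd2 and Foxo3; and the 3 nearest profiles of each member above the floor whose range reached 1 log2. Genes outside it are named as such, or as part of a marker list. Alternatives were quantile, median and cyclic loess normalisation (limma 3.58.1), the mean of all probe sets, other floors and other fold thresholds. Calculations used Python 3.11.15 with pandas 2.3.3 and were tested on simulated data.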

Additional observations from a re-analysis of the deposited data

Results flagged for a closer look

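Fancd2 loss had opposite signs with and without Foxo3a in 3 members, with a departure from additivity of -2.62 log2 for Meg3, -2.61 for Rian and -2.21 for Peg3. The negative sign, DKO minus Foxo3aKO, rests on values under the floor in all 3 genes and was 0.00 with such values raised to it, and for Peg3 the difference of -0.82 was inside the limit of probe set disagreement. Foxo3a loss had opposite signs with and without Fancd2 in Mest, with a departure of -1.26 log2 on values under the floor. The members taken up here lay at least 1 log2 from additivity, with both differences at least 0.5 log2 in size, and with 1 array per genotype none of these differences was tested.

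Probe sets that list a member beside another symbol were outside the comparisons and also differed from WT. The probe set listing Peg3 and Peg3os (17473637) had 3.79 log2 in DKO, 6.31 in Fancd2KO, 5.35 in Foxo3aKO and 3.96 in WT. It was higher than in WT by 2.35 log2 in Fancd2KO and by 1.39 in Foxo3aKO. The probe set listing the snoRNA gene DQ267100 and Rian (17278769) had 4.77 log2 in DKO, 8.03 in Fancd2KO, 6.57 in Foxo3aKO and 8.82 in WT. DKO minus WT was -4.06 log2 and Foxo3aKO minus WT -2.26, and here WT was the highest array, unlike for the Rian probe set with 1 symbol. The gene behind either signal cannot be told from such a probe set.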

How the results depend on the processing

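Counts in this section start from the 5 members above the floor, so Mest is left out and the departure from additivity counts 3. Rian and Peg3 reached the floor in Fancd2KO only, so they entered these counts through the array where they were highest. Quantile, median and cyclic loess normalisation, the mean of all probe sets, no floor, a 1.5-fold threshold and a floor at the 60th percentile left every count of members at least 2-fold apart within 1.5 times its value. Of the members only Plagl1 has 2 probe sets with 1 symbol, so the mean of probe sets could not change the value of any other member. Over the deposited values and the 3 normalisations, Meg3 ran from 1.40 to 1.43 log2 for Fancd2KO minus WT. For DKO minus Fancd2KO it ran from -2.85 to -2.80. Raising values under the floor to it left 1 member at least 2-fold apart for Fancd2KO minus WT, DKO minus Fancd2KO and the departure from additivity, where 3 had been, and 0 for DKO minus WT and DKO minus Foxo3aKO, where 2 had been; the 1 member was Meg3. That setting moved 21 of 54 member differences by more than the SD of probe set disagreement, and 0 differences of at least 2-fold changed sign under any setting. At a 3-fold threshold 0 members counted for Fancd2KO minus WT, DKO minus WT and DKO minus Foxo3aKO, while 3 did for DKO minus Fancd2KO and for the departure. Signals under the floor limit what can be said of Rian, Peg3, Dlk1, Igf2, Mest and Plagl1, and of Meg3 in DKO and Foxo3aKO: raised to the floor, Meg3 differed by -0.13 log2 for DKO minus WT and by 0.00 for DKO minus Foxo3aKO. No paired analysis was possible because each genotype had 1 array.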

Other observations

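The probe set listing Meg3 and Mir770 (17278662) had 5.57 log2 in DKO, 7.01 in Fancd2KO, 6.34 in Foxo3aKO and 6.14 in WT, above the floor on all 4 arrays and highest and lowest on the same arrays as Meg3. Its differences were smaller: 0.87 log2 for Fancd2KO minus WT, -0.57 for DKO minus WT and -0.77 for DKO minus Foxo3aKO. Each of these was under 2-fold and inside the limit of probe set disagreement. Only DKO minus Fancd2KO, at -1.44, and the departure from additivity, at -1.64, passed their limits. A further probe set listing Meg3, Mir1906-1 and Mir1906-2 (17543104) had 5.40, 5.64, 5.34 and 5.73 log2 in DKO, Fancd2KO, Foxo3aKO and WT, a range of 0.39. The probe set listing H19 and Mir675 (17498126) had 4.41 log2 in DKO, 4.29 in Fancd2KO, 4.39 in Foxo3aKO and 4.73 in WT, under the floor throughout.

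Among other imprinted genes under the floor, Asb4, a maternally expressed gene of the Peg10 cluster, had 4.75 log2 in DKO, 5.20 in Fancd2KO, 4.59 in Foxo3aKO and 3.66 in WT. Snhg14, the host transcript of snoRNAs near Ndn, had 3.79, 4.41, 5.12 and 3.81 log2 on the same arrays and was highest in Foxo3aKO. Both were named after their values were seen.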
